A study of Mus musculus with 14 samples.

Results

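Of the 271 mouse genes with an oligonucleotide on the array, 105 stayed at or below a plant control limit on nearly every liver array. These 105 genes, called the silent genes here, are described by tissue and function. A gene was taken when each of its oligonucleotides was above the limit on at most 2 of 14 arrays. That limit was set on each array by the spots of 4 plant oligonucleotides, taken to lack a counterpart in mouse RNA, at 2 SD above the mean of their intensity minus local background. The silent genes have 109 of the 284 mouse oligonucleotides. The same 14 arrays that are described below chose them, so their low levels are a description and were not tested.

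The RNA came from livers of C57BL/6 mice aged 15 to 20 weeks, with primary hepatocytes given as the cell type. Whether whole liver or isolated hepatocytes were extracted is not stated, which bears on genes of endothelium, leucocytes, stellate cells and bile duct. There were 7 mthr-/- mice, 4 females and 3 males, and 7 wild type mice, 2 females and 5 males, with 1 array for each animal. The labels do not spell out the allele written mthr-/-, and they do not say which exons or cells it affects. Homozygous animals had 2% betaine in their drinking water from 5 weeks after weaning, and wild type animals are not described as having it, so betaine and genotype cannot be told apart. All animals received standard chow. Slides carry 4 series names in the labels, lettered A to D. The first, A, holds mthr-/- 1 to 4 and wild type 1, series B holds mthr-/- 5 and 6 and wild type 2 to 5, series C holds wild type 6 and 7, and series D holds mthr-/- 7.

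Every cell type transcribes part of its genome, and an adult hepatocyte devotes much of its messenger RNA to secreted plasma proteins, apolipoproteins and metabolic enzymes. Cytokines, immediate early transcription factors and inducible enzymes are kept at low levels in resting tissue. Muscle contractile proteins, kidney water channels and renin are made elsewhere in the body. An oligonucleotide array reads these differences only above its own background, and 1 oligonucleotide can bind its transcript poorly or bind other transcripts as well. A level near background therefore says that it did not rise above the limit set by the plant controls. It does not say that the transcript was missing. Whether a level above the limit came from the named transcript alone was not tested.

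The arrays differed in brightness. The median level of the 175 other mouse oligonucleotides, in scanner units of background-subtracted intensity, ran from 8.075 to 87 on the mthr-/- arrays and from 5.8 to 36 on the wild type arrays. The limit ran from 1.36 to 8.40 units on mthr-/- arrays and from -0.207 to 9.81 units on wild type arrays, so on wild type 2 slightly negative levels counted as above it. Array mthr-/- 3 stood apart as the brightest, with 176 of 271 genes above the limit. Wild type 6 had the fewest, 69 genes, and mthr-/- 6 had the highest muscle transcript levels, as given below. Levels of different oligonucleotides are not compared with each other, since each binds its target differently.

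The number of arrays above the limit was low or high for most genes. It was 0 for 60 genes, 1 for 28 and 2 for 17, which together are the silent genes, and it was 13 for 28 genes and 14 for 53. Between 3 and 11 arrays there were 4 to 13 genes at each number. Just outside the rule, at 3 arrays, were 9 genes: Hmox1, Bad, Diablo, Gja1, Fas, Enpp1, Entpd1, Myh7 and Aqp9. Their highest levels ran from 9 to 84.75 units and their medians over the 14 arrays from 0.5 to 2.625 units. The 17 oligonucleotides just inside, at 2 arrays, had highest levels of 4.75 to 113.5 units and medians of -0.125 to 3 units. The medians of these neighbours on either side of the rule thus covered much the same range.

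**Figure D1:**
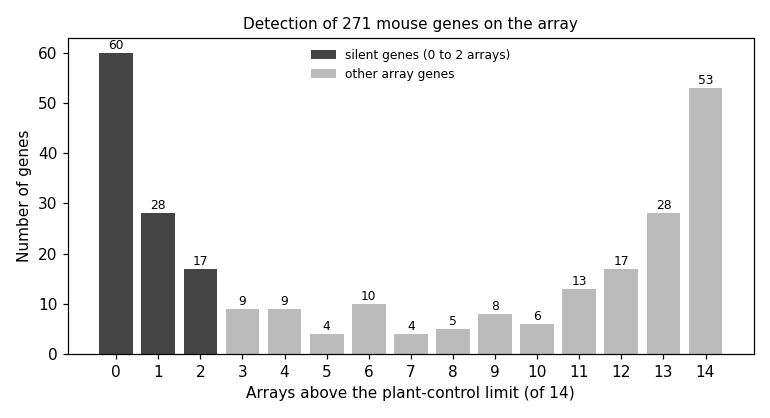
The number of genes (vertical axis) above the plant control limit on 0 to 14 arrays (horizontal axis), with the silent genes in dark bars. The 60 genes at 0 arrays and the 53 genes at 14 arrays form the ends, and 9 genes lie at 3 arrays, just outside the rule.

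The levels of the silent genes lay around 0. Their median level averaged 0.245 units over the 14 arrays, against -0.689 units for the mean of the plant spots. The limit rests on the SD of single plant spots, while a level is a mean over spots, so it is strict for such a mean. A level under it is therefore not the same as no signal. Medians over the 14 arrays ran from -1.625 to 3.125 units over the 109 oligonucleotides, with a middle value of 0.25, and 42 of them were below 0. Of all 1526 levels, 45.1% were below 0 and 91.3% lay between -5 and 5 units. The SD between animals had a median over oligonucleotides of 2.56 units on mthr-/- arrays and 2.25 units on wild type arrays. The SD between the single spots of 1 oligonucleotide within an array had medians of 1.71 to 3 units per array. The 2 kinds of SD are not directly comparable, since the SD between animals is that of means over spots. Averaged over the arrays, 108 of 109 oligonucleotides were below the limit, the exception being Ak1. In the authors' deposited table of values, 103 oligonucleotides are listed, and 0 of them belong to silent genes, against 103 of the 175 others.

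A few levels were far below 0 because the local background was brighter than the spot. The 4 levels under -100 units were those of Ngb on mthr-/- 3 at -2507, Mtr on mthr-/- 6 at -1715, Krt19 on mthr-/- 5 at -660 and Prkg2 on wild type 5 at -366. On the other 13 arrays these genes read between -13 and 14.75 units. Their means are not used below.

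**Figure D2:**
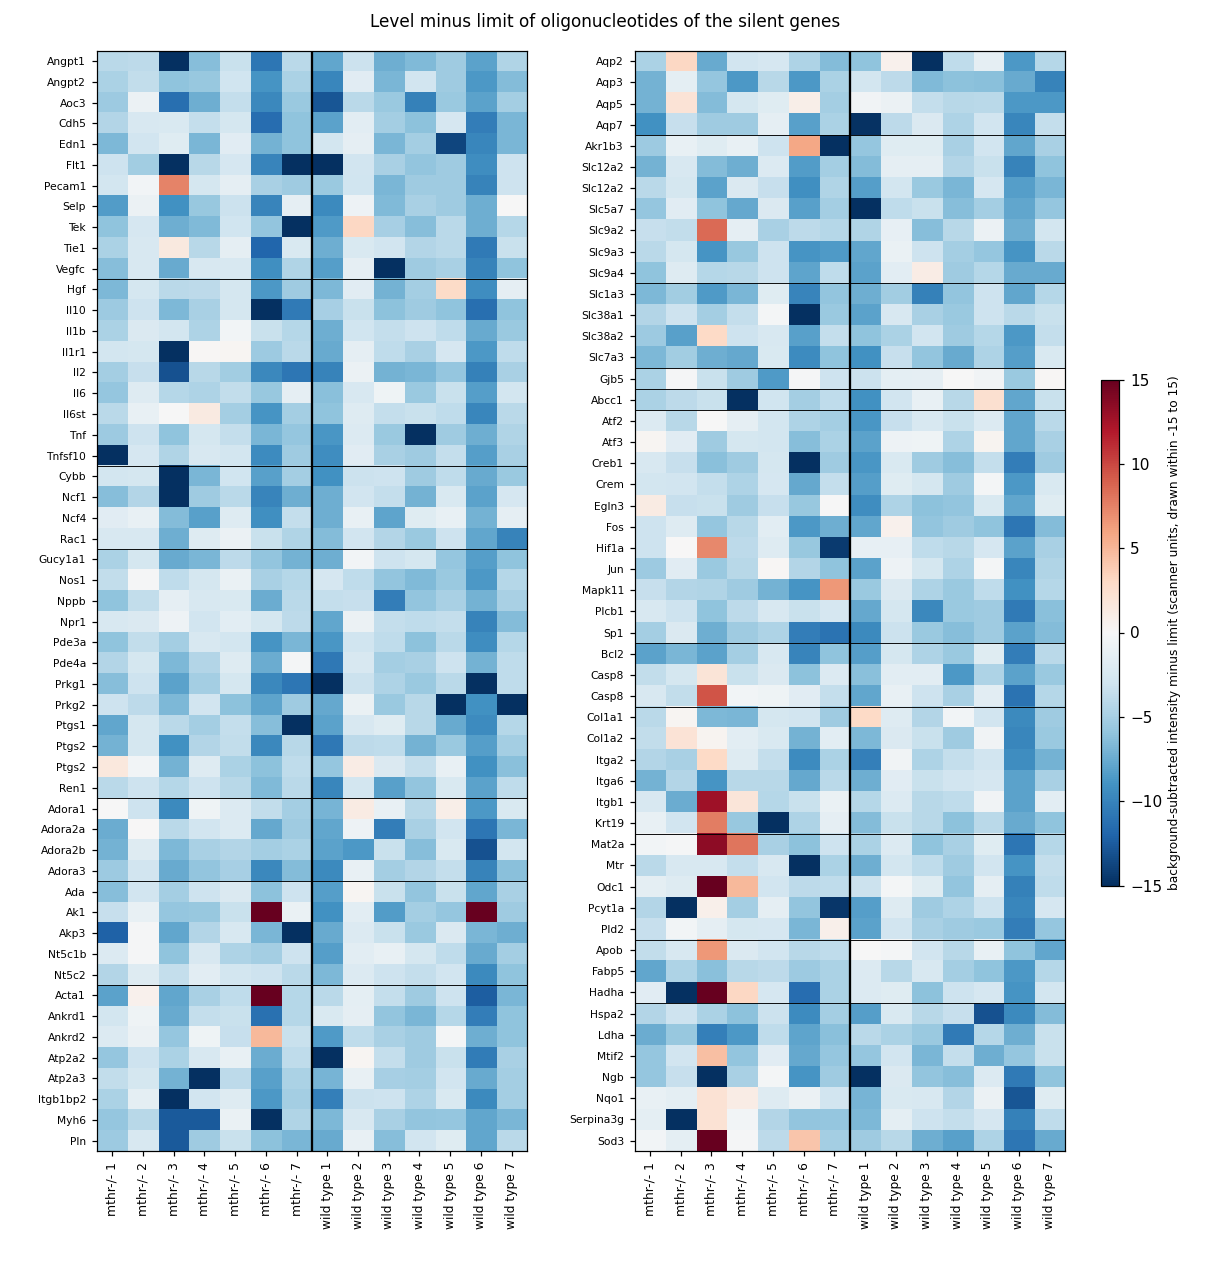
Level minus the limit of the array (colour, scanner units drawn within -15 to 15) for the oligonucleotides of the silent genes named in the text in rows, ordered by function group with lines between groups, and the 14 arrays in columns, mthr-/- left of the line and wild type right of it. Blue cells are below the limit, and the red cells gather in the column of mthr-/- 3.

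The label of silence in liver was checked against genes that define liver cells. Of 12 hepatocyte markers on the array, such as albumin, 11 were above the limit on 12 to 14 arrays. The other marker was Apob, the structural protein of the lipoproteins that liver secretes, which is a silent gene by the rule. Apob read -1.525 to 13.5 units on mthr-/- arrays with a median of 2.33, and -1 to 7 units on wild type arrays with a median of 1.5. It was above the limit on mthr-/- 3 and on no other array. Several more silent genes are known for products that hepatocytes use, among them Hadha, Mtr, Pcyt1a, Il6st and Itgb1. These genes go against the name of silence in liver, so the 105 genes are described by the rule, and silent means here below the limit of this array.

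Oligonucleotides of the same gene did not always give the same reading. The silent genes Casp8, Ptgs2 and Slc12a2 have 2 oligonucleotides each. Both oligonucleotides of Slc12a2 were above the limit on 0 arrays, and both of Casp8 on 1 array, mthr-/- 3. Those of Ptgs2 were above on 0 and 2 arrays. Outside the silent genes, the 2 oligonucleotides of Icam1 were above on 1 and 8 arrays, and those of Chdh on 2 and 10, so that 1 oligonucleotide of each would have met the rule by itself.

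Array genes were sorted into 18 groups by known function after their values had been seen, and the silent genes are named by group below. The groups hold every silent gene but leave out some of the other array genes, such as Alb, Gapdh and Sod1. Shares within groups can therefore be too high to set against the 38.7% of all array genes that are silent. Because the rule chose the genes by level, the counts per group describe the array and were not tested.

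**Figure D3:**
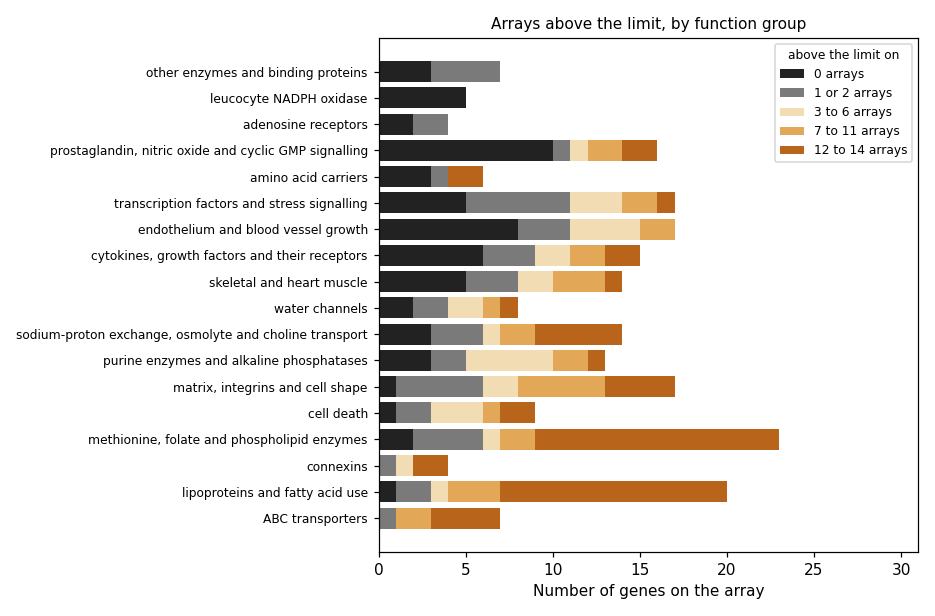
Number of array genes (horizontal axis) in each of the 18 function groups (rows), divided by the number of arrays above the limit. The dark and grey parts are the silent genes, which make up all 5 genes of the leucocyte NADPH oxidase, all 4 adenosine receptors and 3 of 20 lipoprotein and fatty acid genes.

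Signals and receptors of the immune system were largely at background. The silent cytokines were Il1b, Il6 and Tnf, which drive inflammation, Il2, the growth factor of T cells, Il10, which dampens inflammation, and Tnfsf10, a ligand that triggers cell death. The silent receptors were Il1r1, the receptor of Il1b, and Il6st, the signalling chain shared by receptors of the Il6 family. Hgf, the hepatocyte growth factor that stellate cells make, was also silent. Together 9 of 15 genes in this group were silent, and 6 of them were above the limit on 0 arrays. Il1b read 0 to 5 units on mthr-/- arrays with a median of 1.25, and -3.225 to 2.25 units on wild type arrays with a median of 0.75. Tnf read -2.175 to 2 units on mthr-/- arrays and -11.5 to 2.5 units on wild type arrays. Hgf was above the limit on wild type 5 at 6.75 units and Il6st on mthr-/- 4 at 6 units. Above the limit on most arrays in the same group were Mst1, a plasma protein made by hepatocytes, on 13 arrays, and Epo, the red cell hormone, on 12.

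Il1r1 was above the limit on 2 arrays. It read 4.75 units on mthr-/- 4 and 1.7 units on mthr-/- 5, where the limit was 1.36. Over all arrays it ran from -33.75 to 4.75 units with a median of 1.7 on mthr-/- arrays, and from -1.55 to 3 units with a median of 0.5 on wild type arrays. The 2 ranges overlapped.

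All 5 genes of the leucocyte NADPH oxidase, the enzyme with which phagocytes make superoxide, were above the limit on 0 of 14 arrays. Among them are Cybb, its membrane catalytic subunit, Ncf1 and Ncf4, cytosolic subunits, and Rac1, a small GTPase that activates it and is used by most cell types. The highest level of Cybb was 3.33 units on mthr-/- arrays and 2.25 units on wild type arrays. For Rac1 the highest levels were 5 units on mthr-/- arrays and 2 units on wild type arrays. Cybb, Tnf and Il1b are also the 3 macrophage and leucocyte markers of the array, and each was above the limit on 0 arrays.

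Of 17 genes for endothelium and blood vessel growth, 11 were silent. The part of the RNA source, whole liver or isolated hepatocytes, in these levels was not tested. In bulk RNA, fewer cells of a type and less RNA per cell cannot be told apart. They hold the junction proteins Cdh5 and Pecam1, the receptor kinases Tek, Tie1 and Flt1, the platelet and endothelial adhesion molecule Selp, and the amine oxidase Aoc3. The others were ligands, namely Angpt1 and Angpt2, which bind Tek, Vegfc, the lymphatic growth factor, and Edn1, a vasoconstrictor peptide. Of these, 8 were above the limit on 0 arrays. Pecam1 read 14.5 units on mthr-/- 3 and Tie1 8.5 units on the same array, and Tek read 2.9 units on wild type 2. The VEGF receptor Kdr, a marker of liver sinusoidal endothelium, was above on 6 arrays and Vcam1 on 9.

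In the group of matrix, integrins and cell shape 6 of 17 genes were silent: Col1a1 and Col1a2, the chains of type I collagen, Itga2, Itga6 and Itgb1, integrin chains that bind collagen and laminin, and Krt19, a keratin of bile duct cells. Only Itga6 was above on 0 arrays. Col1a1 read -2.25 to 5.5 units on mthr-/- arrays with a median of 0.25, and -2.15 to 10 units on wild type arrays with a median of 1. It was above the limit on mthr-/- 2 at 3.25 and on wild type 1 at 10. Col1a2 read -0.975 to 7.5 units on mthr-/- arrays with a median of 3, and -2.42 to 3.25 units on wild type arrays with a median of 0.25, and it was above on mthr-/- 2 and mthr-/- 3. The third fibrillar chain on the array, Col3a1, was above on 8 arrays, and Fn1, fibronectin, which hepatocytes secrete, on 13.

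Itgb1, the chain common to many integrins, read 19.75 units on mthr-/- 3 and 6.5 units on mthr-/- 4, both above the limit. On all mthr-/- arrays it ran from -4.5 to 19.75 units with a median of 4.5, and on wild type arrays from -2.3 to 5.25 units with a median of 1.75. Krt19 and Itga2 were above on mthr-/- 3 alone, at 14.75 and 10 units.

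Signalling by prostaglandins, nitric oxide and cyclic GMP had 11 of 16 genes silent, 10 of them above the limit on 0 arrays. They include both cyclooxygenases, Ptgs1 and Ptgs2, the neuronal nitric oxide synthase Nos1, the guanylate cyclases Gucy1a1 and Npr1, the cyclic GMP dependent kinases Prkg1 and Prkg2, the phosphodiesterases Pde3a and Pde4a, the heart peptide Nppb and the kidney protease Ren1. One oligonucleotide of Ptgs2 was above the limit on mthr-/- 1 at 7.67 units and on wild type 2 at 0.85 units, where the limit was -0.207. It ran from -3.42 to 7.67 units on mthr-/- arrays with a median of 2.25, and from 0.5 to 2.75 units on wild type arrays with a median of 0.85. The second oligonucleotide of Ptgs2 stayed between -4.125 and 1.75 units. Ren1 read -2.825 to 2.75 units on mthr-/- arrays and -3.75 to 3 units on wild type arrays. Angiotensinogen (Agt), the substrate of renin that liver secretes, was above the limit on 12 arrays. The other genes of this group that were not silent include close relatives of silent ones. Nppa, a heart peptide like Nppb, was above on 13 arrays, and Gucy1b1, the partner subunit of Gucy1a1, on 11. The nitric oxide synthases Nos2 and Nos3 were above on 9 and 5.

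All 4 adenosine receptors were silent. Adora1, which lowers cyclic AMP, read -2.5 to 6 units on mthr-/- arrays with a median of 0.5, and 0 to 4.75 units on wild type arrays with a median of 1.25. It was above the limit on wild type 2 at 1.05 units and wild type 5 at 4.75 units, while the 6 units on mthr-/- 1 lay under the limit of 6.08 there. Adora2a, which raises cyclic AMP, was above on mthr-/- 2, and Adora2b and Adora3 were above on 0 arrays.

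Of 13 purine enzymes and alkaline phosphatases, 5 were silent. Ada removes the amino group of adenosine, Nt5c1b and Nt5c2 are cytosolic nucleotidases, and Akp3 is an alkaline phosphatase of the intestine. The liver and bone phosphatase Alpl was above on 6 arrays. Ak1, the adenylate kinase that is abundant in skeletal muscle, gave the highest single reading among the silent genes. It read 56.75 units on mthr-/- 6 and -2.03 to 4.5 units on the other mthr-/- arrays. On wild type 6 it read 113.5 units, and on the other wild type arrays -4 to 1.5 units.

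The muscle genes on these 2 arrays were looked at beside Ak1. Summed over the 11 array genes of the skeletal and cardiac muscle list, the level was 1121 units on mthr-/- 6 and 6.9 to 258.5 units on the other mthr-/- arrays. It was 524.75 units on wild type 6 and 0.625 to 149.9 units on the other wild type arrays. Of the 11 genes, 8 were above the limit on mthr-/- 6 and 4 on wild type 6, against 2 to 6 on the other mthr-/- arrays and 2 to 5 on the other wild type arrays. Myh7, a slow muscle myosin that is just outside the rule, had its highest level of 84.75 units on mthr-/- 6. The part of muscle RNA in these readings was not tested.

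Among 14 genes sorted with skeletal and heart muscle, 8 were silent. They include the calcium pumps Atp2a2 and Atp2a3, which are also used outside muscle. The muscle list used above lacks both pumps, and it lacks the silent genes Ankrd1, Ankrd2 and Itgb1bp2. Of the 11 genes on that list, 4 were silent (36.4%). Acta1, the actin of skeletal muscle fibres, read 31.5 units on mthr-/- 6 and 3.5 units on mthr-/- 2, both above the limit, and -2.475 to 1.25 units on the other mthr-/- arrays. On wild type arrays it read -2.5 to 3 units with a median of 0. Ankrd2, a stretch-responsive protein of skeletal muscle, was above on mthr-/- 6 as well, at 13.25 units. Myh6, a heart myosin, Pln, which inhibits the calcium pump of heart, Ankrd1, a heart stress protein, Itgb1bp2, a muscle protein that binds integrin, and Atp2a3, a calcium pump, were above the limit on 0 arrays. Atp2a2, the calcium pump of heart and slow muscle, was above on wild type 2. The oxygen-binding protein Mb was above on 13 arrays and Tcap, a protein of the muscle Z disc, on 11, so muscle genes were not silent as a class.

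Transporters of kidney, gut and nerve were a further set. Of 8 water channels 4 were silent: Aqp2 and Aqp3, of the kidney collecting duct, Aqp5, of lung and glands, and Aqp7, of fat, testis and kidney. Aqp1 was above on 12 arrays and Aqp8, a channel of hepatocytes, on 11, while Aqp9, the glycerol channel of hepatocytes, lay just outside the rule at 3. Aqp2 was above on mthr-/- 2 at 6 units and on wild type 2 at 0.475 units. It ran from -1.125 to 6 units on mthr-/- arrays with a median of 1.33, and from -15 to 2.5 units on wild type arrays with a median of 1. Aqp5 was above on mthr-/- 2 at 5 units and on mthr-/- 6 at 9.25 units. It ran from -1 to 9.25 units on mthr-/- arrays with a median of 0.5, and from -1.75 to 6.5 units on wild type arrays with a median of 0, the highest being wild type 1.

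In sodium-proton exchange, osmolyte and choline transport 6 of 14 genes were silent. Slc9a2, Slc9a3 and Slc9a4 are exchangers of gut, kidney and stomach. Slc12a2 is the sodium, potassium and chloride carrier of secreting epithelia, Slc5a7 the choline carrier of cholinergic nerves, and Akr1b3 aldose reductase, which makes sorbitol in kidney. The 2 oligonucleotides of Slc12a2 stayed between -2.75 and 2.5 units on mthr-/- arrays and between -3 and 3 units on wild type arrays. Slc9a2 read 15.5 units on mthr-/- 3 and Akr1b3 14.25 units on mthr-/- 6. Sord, which uses sorbitol, and Slc6a6, the taurine carrier, were above on 14 arrays.

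Of 6 amino acid carriers 4 were silent, namely Slc38a1 and Slc38a2, which take up glutamine and other neutral amino acids, Slc7a3, a carrier of cationic amino acids, and Slc1a3, the glutamate carrier of glia. The liver members of the Slc38 family behaved otherwise: Slc38a3 was above on 13 arrays and Slc38a4 on 12. Of 4 connexins, the channel proteins of gap junctions, Gjb5, of skin and placenta, was silent, while the hepatocyte connexins Gjb1 and Gjb2 were each above on 12 arrays. Of 7 ABC transporters Abcc1, an export pump found in most tissues but little in hepatocytes, was the silent one, and the bile canalicular pumps Abcb11 and Abcc2 were each above on 12 arrays.

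Transcription factors and stress signalling had 11 of 17 genes silent. Fos and Jun are immediate early genes that form the factor AP-1, Atf2, Creb1 and Crem bind cyclic AMP response elements, Atf3 is induced by stress, Sp1 binds GC-rich promoters, and Hif1a is the subunit that senses low oxygen through its stability. Egln3 is a prolyl hydroxylase that marks Hif1a for decay, Mapk11 a stress kinase and Plcb1 a phospholipase that receives G protein signals. Of these, 5 were above on 0 arrays. Hif1a was above on mthr-/- 2 at 3 units and on mthr-/- 3 at 14.25 units. It ran from -8.75 to 14.25 units on mthr-/- arrays with a median of 2.75, and from -1.45 to 5.75 units on wild type arrays with a median of 1.25. Atf3 was above on mthr-/- 1 at 6.33 units and wild type 5 at 4.25 units. It ran from -1.4 to 6.33 units on mthr-/- arrays and from -1 to 4.25 units on wild type arrays. Mapk11 was above on mthr-/- 7 at 12 units. Xbp1, a factor of secretory cells that hepatocytes use, was above on 13 arrays.

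Of 9 cell death genes 3 were silent, among them the survival factor Bcl2 and Casp8, a protease that initiates cell death. One oligonucleotide of Casp8 read 16.5 units on mthr-/- 3 and the second 9 units on that array. The first ran from -0.75 to 16.5 units on mthr-/- arrays with a median of 3.67, and from -1.35 to 2.5 units on wild type arrays with a median of -0.75. Bcl2l1, the survival factor related to Bcl2, was above on 12 arrays.

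Of 23 genes for methionine, folate and phospholipid metabolism 6 were silent (26.1%), among them Mtr, methionine synthase, Mat2a, the S-adenosylmethionine synthetase of tissues other than adult liver, Pcyt1a, a rate-controlling enzyme of phosphatidylcholine synthesis, Pld2, which releases choline from it, and Odc1, the first enzyme of polyamine synthesis. Mat1a, the synthetase of adult liver, was above on 14 arrays, as were Cbs, Cth, Gnmt and Pemt.

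Mat2a was above the limit on mthr-/- 3 at 20.5 units and on mthr-/- 4 at 12.67 units. It ran from -3.475 to 20.5 units on mthr-/- arrays with a median of 2.75, and from -2.2 to 2.5 units on wild type arrays with a median of -0.75. Odc1 was above on the same 2 arrays, at 29.25 and 9.5 units. It ran from -1.55 to 29.25 units on mthr-/- arrays with a median of 4.5, and from -1.75 to 3.75 units on wild type arrays with a median of 2.5. For both genes the 2 brightest readings were mthr-/- 3 and mthr-/- 4, and the other mthr-/- arrays lay within or near the wild type range.

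Of 20 genes for lipoproteins and fatty acid use 3 were silent (15%), namely Apob, Hadha and Fabp5, the fatty acid binding protein of skin. Hadha, a subunit of the mitochondrial trifunctional protein of fatty acid oxidation, read 48 units on mthr-/- 3 and 7.75 units on mthr-/- 4, both above the limit. It ran from -42 on mthr-/- 2 to 48 units on mthr-/- arrays with a median of 0.75, and from -2.075 to 5 units on wild type arrays with a median of 1. Hadhb, the partner subunit of the same protein, was above on 14 arrays, and so was Fabp1, the fatty acid binding protein of liver.

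The remaining 7 silent genes were Ldha, lactate dehydrogenase of muscle and liver, Nqo1, an inducible quinone reductase, Sod3, the extracellular superoxide dismutase, Serpina3g, a protease inhibitor, Hspa2, a heat shock protein abundant in testis, Mtif2, an initiation factor of mitochondrial translation, and Ngb, the globin of neurons. Sod3 was above the limit on mthr-/- 3 at 22.25 units and on mthr-/- 6 at 12.5 units. It ran from -2.55 to 22.25 units on mthr-/- arrays with a median of 4.5, and from -4.33 to 1.75 units on wild type arrays with a median of -1. Nqo1 was above on mthr-/- 3 at 9.25 units and mthr-/- 4 at 5.75 units. It ran from -0.55 to 9.25 units on mthr-/- arrays with a median of 5, and from -3 to 5 units on wild type arrays with a median of 0.

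**Figure D4:**
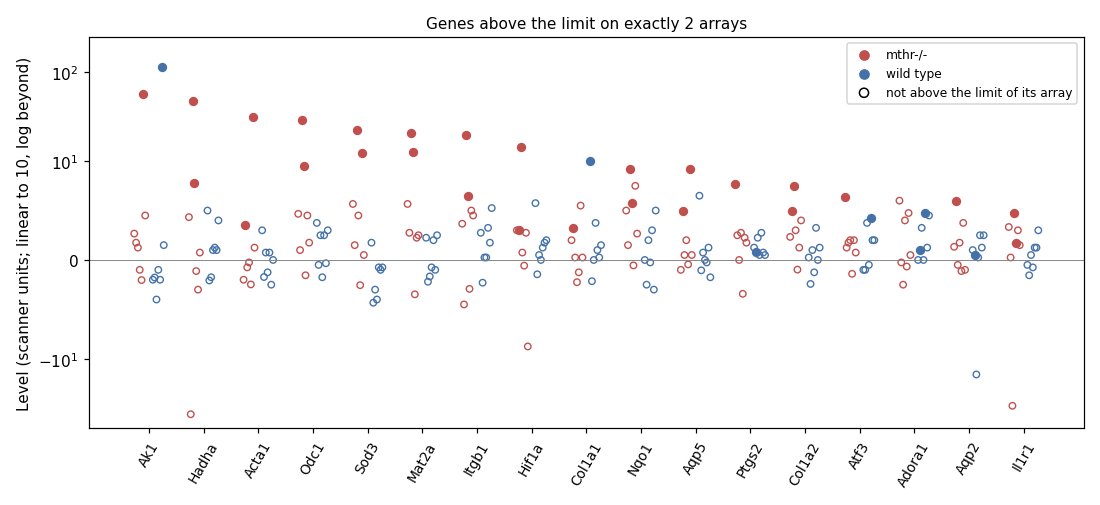
Level in scanner units (vertical axis, linear up to 10 and logarithmic beyond) of the 17 genes above the limit on exactly 2 arrays, with mthr-/- points left of wild type points for each gene and filled points above the limit of their own array. Ak1 reaches 56.75 units on mthr-/- 6 and 113.5 units on wild type 6, and most other points lie around 0.

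Genes were also grouped by tissue, with short lists chosen with earlier results of these data known. The lists leave out array genes of the same tissues, such as Aqp7 for kidney and Akp3 for intestine, which were silent. The kidney list also leaves out genes used by kidney that were not silent, such as Aqp1, above on 12 arrays, and Slc6a12, above on 9. The counts therefore hold for the lists and not for every array gene of a tissue. All 5 genes of the kidney list (Aqp2, Aqp3, Ren1, Akr1b3 and Slc9a3) were silent. So were all 3 genes of the list for gut, lung, skin and gland epithelia (Aqp5, Krt19 and Gjb5) and 6 of 8 on the list for immune and blood cells. Of the muscle list 4 of 11 were silent, of brain and nerve 2 of 4, and of liver cells other than hepatocytes 5 of 12. Among 13 housekeeping and structural genes, 0 were silent.

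The same measure was looked at on arrays one at a time. Silent genes above the limit numbered 3, 7, 20, 7, 2, 6 and 2 on mthr-/- arrays 1 to 7, with a median of 6. On wild type arrays 1 to 7 they numbered 1, 7, 1, 0, 4, 1 and 1, with a median of 1. Over all arrays, 63 of 1526 levels were above the limit, which is 4.13%, with 48 on mthr-/- arrays and 15 on wild type arrays. The share of silent genes above the limit averaged 6.39% per mthr-/- array and 2.04% per wild type array. Over all array genes the share was also higher on mthr-/- arrays, with averages of 53.5% and 44.4%. For the genes that are not silent the averages were 83.3% and 71.3%. Of the 63, 19 exceeded the limit by at most 1 unit and 8 by over 10 units. The 45 genes above on 1 or 2 arrays comprised 31 above on mthr-/- arrays alone, 9 on wild type arrays alone and 5 on both.

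The brightest array held a large part of these. Of the 45 genes, 20 were above on mthr-/- 3, and 12 of them on no other array. That array's other oligonucleotides had a median of 87 units, against 8.075 to 60.5 on the other mthr-/- arrays and 5.8 to 36 on the wild type arrays. Without mthr-/- 3, mthr-/- 6 and wild type 6, 21 levels were above the limit on 5 mthr-/- arrays and 14 on 6 wild type arrays, and 76 of the 105 genes were above on 0 arrays. Within slide series A the counts were 3, 7, 20 and 7 on the mthr-/- arrays and 1 on the wild type array. Within series B they were 2 and 6 on the mthr-/- arrays and 7, 1, 0 and 4 on the wild type arrays, so that the 2 genotypes overlapped there. The part of array brightness and slide series in the difference between genotypes was not tested.

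**Figure D5:**
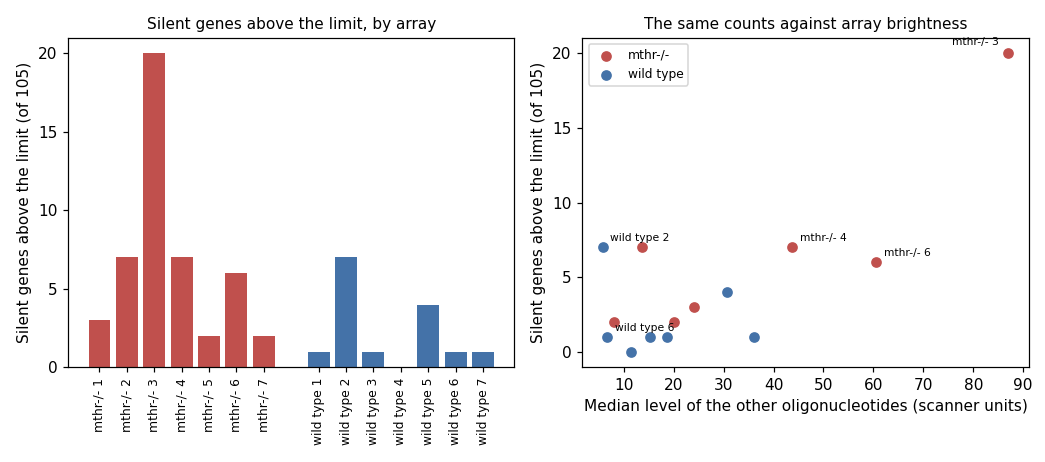
Left, number of silent genes above the limit (vertical axis, of 105) on each array, mthr-/- left of wild type. Right, the same counts against the median level of the other oligonucleotides (horizontal axis, scanner units), where mthr-/- 3 lies apart with 20 genes at 87 units.

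As a reading that leaves the described array out of the choice of genes, the rule was applied to 13 arrays and the array left out was then examined. Of the 111 genes silent on the other 13, 26 (23.4%) were above the limit on mthr-/- 3. On the other 6 mthr-/- arrays this share was 1.90% to 11.7%, and on the 7 wild type arrays it was 0% to 7.55%. On each array left out, then, at least 76.6% of the genes chosen without it were also below its limit. For comparison, 25.5% to 64.9% of all array genes were above the limit on an array, the highest share being that of mthr-/- 3.

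Whether genotype changed these genes was asked with limma over all 271 genes without a detection filter, on log2 intensities after normexp correction with an offset of 50 and quantile normalization. The fit called 0 of 105 silent genes at an adjusted p below 0.05, and 0% of all 271 genes. Unadjusted p was below 0.05 for 7 silent genes (6.67%), 3 higher and 4 lower in mthr-/-, and for 18 of all genes (6.64%). The smallest adjusted p was 0.617 (Benjamini-Hochberg, limma, n = 7 each). The median log2 difference was -0.0070 for silent genes and -0.0058 for all genes, and the median SE of a silent gene was 0.014. The offset draws differences at this level towards 0, so these sizes are not fold changes of transcript.

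The 6 silent genes with the smallest p are given with their linear levels. Sod3 averaged 6.34 ± 8.48 units in mthr-/- and -1.73 ± 2.16 units in wild type (SD, n = 7 each), with a log2 difference of 0.042 (SE 0.014, limma adjusted p 0.617). Its ranges, given above, overlapped. Pld2 read -1.15 to 6.33 units on mthr-/- arrays with a median of 2.5, and -3.05 to 1 unit on wild type arrays with a median of -1, a log2 difference of 0.028 (SE 0.0095). Of its mthr-/- levels 6 of 7 were higher than every wild type level, but Pld2 was above the limit on mthr-/- 7 alone. On this linear scale 90.3% of other oligonucleotides and 62.4% of those of silent genes had a higher mthr-/- mean. Pld2 was picked by its p in these data, and the share of all oligonucleotides so separated was not computed. Plcb1 read -1.1 to 5 units on mthr-/- arrays with a median of 1, and -5.25 to 0.5 units on wild type arrays with a median of -1.5, a log2 difference of 0.025 (SE 0.0098).

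The other 3 had lower means in mthr-/-. Itga6 read -2.75 to 1.5 units on mthr-/- arrays with a median of -1, and -1.925 to 2 units on wild type arrays with a median of 1.25. Its log2 difference was -0.026 (SE 0.0081). Ncf1 read -17.75 to -0.333 units on mthr-/- arrays with a median of -1.5, and -3.025 to 4.25 units on wild type arrays with a median of 0.75, a log2 difference of -0.030 (SE 0.011). Gjb5 read -7.15 to 8.25 units on mthr-/- arrays with a median of 2.5, and -1.67 to 7 units on wild type arrays with a median of 3.75, a log2 difference of -0.052 (SE 0.022). The signs of Itga6, Ncf1 and Gjb5 turned without normalization between arrays, where the median of all genes was higher by 0.87 on the log2 scale in mthr-/-. On the linear scale, 0 of the 109 oligonucleotides of silent genes had genotypes that did not overlap, and of all 284 mouse oligonucleotides the share was likewise 0%.

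On the linear scale the mthr-/- mean was higher than the wild type mean for 158 of 175 other oligonucleotides (90.3%) and for 68 of 109 oligonucleotides of silent genes (62.4%). The part of array brightness in these shares was not tested. In the normalized fit, 35 of 105 silent genes had a higher mthr-/- mean, but 72 did when arrays were centred on their median instead, and all 105 did without normalization. No direction is therefore given for the silent genes as a set.

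The promoters of the silent genes were compared with those of the other array genes as a feature the rule did not use. RefSeq promoter sequences (build GRCm38.p6) were matched by symbol for 75 of the 105 silent genes (97 promoters) and 125 of the 166 others (165 promoters). In the 250 bases before the start, the median number of CG dinucleotides was 10 in silent genes, 10 in the others and 6 over all 32851 promoters of the table. The letters TATAAA, the core of the TATA box that places the start of transcription in many inducible genes, were searched on both strands and stood in 19 of 97 silent promoters (19.6%). They stood in 17 of 165 promoters of the others (10.3%) and in 12.4% of all promoters. On the gene's strand with their first base 40 to 20 bases before the start, they stood in 11 silent promoters (11.3%), 8 of the others (4.85%) and 1.99% of all. These shares are descriptions of the genes chosen for the array and were not tested.

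The 11 silent genes with TATAAA at that place are Ankrd2, Aqp3, Flt1, Fos, Il1b, Il2, Mat2a, Nppb, Nqo1, Ren1 and Tnf. The 60 bases before the start are shown for 6 of them, from immune cells, heart, kidney and stress signalling, and for Mat2a from metabolism, with TATAAA in capitals.
Il1b: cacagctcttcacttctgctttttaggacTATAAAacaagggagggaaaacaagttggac
Tnf: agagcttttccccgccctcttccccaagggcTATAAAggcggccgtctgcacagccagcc
Nppb: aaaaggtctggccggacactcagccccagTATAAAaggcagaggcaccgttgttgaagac
Ren1: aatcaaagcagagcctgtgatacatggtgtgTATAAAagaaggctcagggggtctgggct
Aqp3: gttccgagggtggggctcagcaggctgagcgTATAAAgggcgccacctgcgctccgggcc
Fos: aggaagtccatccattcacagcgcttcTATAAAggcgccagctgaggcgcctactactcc
Mat2a: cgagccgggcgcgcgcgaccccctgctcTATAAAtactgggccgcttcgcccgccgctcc
On GRCm38.p6 these lie at chr2:129371140-129371199 (minus strand) for Il1b, chr17:35202008-35202067 (minus) for Tnf, chr4:147985840-147985899 (plus) for Nppb, chr1:133350614-133350673 (plus) for Ren1, chr4:41098184-41098243 (minus) for Aqp3, chr12:85473830-85473889 (plus) for Fos and chr6:72439557-72439616 (minus) for Mat2a. The first T of the capitals is 29 to 33 bases before the start. The stretches differ in base composition: the 250 bases before the start held 29 CG dinucleotides in Mat2a and 15 in Fos, against 2 in Il1b and 1 in Ren1. All 7 genes were above the limit on at most 2 arrays, with 0 for Il1b, Tnf, Nppb, Ren1 and Aqp3, 1 for Fos and 2 for Mat2a.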

How the data were processed

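Liver RNA of 14 mice was labelled with 1 dye and hybridised to spotted oligonucleotide arrays, 1 array per animal, per the labels' protocols. Per the file headers, each deposited array file gives the intensity and local background of 4 spots per oligonucleotide on a linear scale, with columns scaled by the authors; the authors' deposited value table holds linear intensity, and their deposited comparison table log10 ratios of medians. For the scanner, its software and its settings, nothing is given in the sources used here. 1 block of mthr-/- 1 repeats another and was counted once, and 177 of 15904 mouse spots that are blank in the scaled columns were left out. Levels are means over spots of intensity minus background.

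Python 3.11.15 with pandas 2.3.3 computed levels and counts. limma 3.58.1 in R 4.3.3 tested genotype (lmFit, eBayes, two-sided, Benjamini-Hochberg, threshold 0.05) on log2 values that were computed here from the deposited intensity, with the brightest oligonucleotide per gene. The procedure was tested on simulated data, where changes multiplied or divided the median level of a gene. Genes with a level near 0, as many silent genes have, hardly changed there. The simulation therefore does not show whether the fit could find a change in the silent genes. Names came from a RefSeq table through the accession for 193 oligonucleotides, the symbol for 34, a synonym for 23 and the name in the files for 34. 0 per-sample columns were left unmapped. The number of arrays limits the precision.

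The members and the lists were chosen with earlier results of these data known. Silent genes are named by group, except a few that are not reported here. The rule for giving values, with the same exception, takes genes above the limit on exactly 2 arrays (17), the 8 with the highest single level, the 8 with the highest mean of level minus limit, the 6 with the smallest p for genotype and the 4 with several oligonucleotides, 26 different genes in all. Animal numbers did not pair the samples: correlations of deviations between mice of the same number ran from -0.23 to 0.35.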

Additional observations from a re-analysis of the deposited data

Results flagged for a closer look

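In groups of 7 arrays, 10 readings stood farther from the nearest other value than Dixon's 95% limit allows, among 62 groups of 7 values examined. Most genes examined had been picked by their levels in these same data, some for a high single level. The usual rate of chance flags therefore does not apply, and the 10 readings are a description. The gap was on array mthr-/- 3 for 5 of them. The number of silent genes above the limit there was 20, against 7 on the next mthr-/- array. Apob read 13.5 units on that array and 4.25 on the next, and Odc1 29.25 units and 9.5 on the next. A pair of genes was low there, Il1r1 at -33.75 units with the next mthr-/- array at 0.25, and Ncf1 at -17.75 units with the next at -2.65. On mthr-/- 6, Ak1 stood at 56.75 units with the next mthr-/- array at 4.5, and Acta1 at 31.5 units with the next at 3.5. Among wild type arrays, Ak1 was 113.5 units on wild type 6 with the next at 1.5, Aqp2 was -15 units on wild type 3 with the next at 0.25, and Aqp5 was 6.5 units on wild type 1 with the next at 1.25.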

How the results depend on the processing

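The number of silent genes was 105, and 25 of 27 alternatives gave 75 to 125 genes. It was 52 with a limit of the mean plus 1 SD and 60 when 0 arrays above the limit were allowed. Leaving out each array in turn gave 105 to 111 genes. Chosen after seeing the data, a limit set relative to the 75th percentile of each array gave 92 genes, 89 of them shared with the 105, and leaving out mthr-/- 3, mthr-/- 6 and wild type 6 gave 114. The fit called 0 silent genes and 0 of all genes under every alternative run, with 0 to 0 called when each array was left out. The smallest adjusted p over all genes was 0.061 without normalization, 0.94 with slide series as a block, 0.46 with sex as a covariate and 0.68 with animal number as a replicate block, each by limma. Without normalization 100 of 105 silent genes had an unadjusted p below 0.05, all higher in mthr-/-, beside 186 of all 271 genes, against 7 and 18 with quantile normalization. A filter of at least 7 arrays above the limit left no silent gene to test. Without normalization Itga6 was at 0.862, Ncf1 at 0.861 and Gjb5 at 0.836, reversed in sign. The background of each spot limits what these arrays can show: a change that stays below the limit in both genotypes was not detectable.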
